A study of Homo sapiens with 8 samples.

Results

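The genes examined here are 48 genes of the endoplasmic reticulum (ER) that bring proteins into this compartment, fold them, pass them on to the Golgi or remove them when folding fails. They were chosen by symbol from a list drawn up by function. All 48 had a row in the deposited expression table. Of these, 47 reached an average of 1 RPKM across the 8 libraries and so belong to the 14732 genes tested. RPKM is a read number corrected for the length of the gene and for the size of the library. The gene left out was ERO1LB, an oxidase of ER disulfide formation. Its 8 values ran from 0.398 to 1.36 RPKM, with a mean of 0.745 RPKM. The remaining genes fall into 6 roles, namely 11 chaperones and co-chaperones, 5 genes of disulfide formation, 15 genes of protein entry, 9 genes of ER-associated degradation, 3 stress sensors and 4 genes of vesicle transport and retrieval.

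The libraries come from LP-1, a human cell line of multiple myeloma, a cancer of plasma cells, treated for 6 hr. In the first experiment, 2 libraries of cells given 2.5 μM SGC-CBP30, an inhibitor of the bromodomains of CBP and EP300, stand beside 2 libraries of cells given DMSO. In the second, 2 libraries of cells given 0.25 μM CPI203, an inhibitor of BET family bromodomains, stand beside 2 further DMSO libraries. Both experiments use 1 cell line, 1 dose of each compound and 1 time point. Neither dose nor time dependence can therefore be read from them. The labels name no engineered genetic change of the cells.

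Proteins made for export enter the ER through the Sec61 channel, lose their signal peptide, receive sugars and disulfide bonds, and are folded by chaperones such as BiP, the product of HSPA5. Chains that do not fold are drawn back into the cytosol by the HRD1 and SEL1L complex and destroyed by the proteasome. When unfolded chains build up, the sensors IRE1α (ERN1), PERK (EIF2AK3) and ATF6 start the unfolded protein response, in which XBP1 and cleaved ATF6 switch on chaperone and degradation genes. Plasma cells secrete antibody and carry a large ER, and myeloma cells keep this machinery.

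Facts of the whole series bear on these genes as follows. The depth, estimated from the steps in low RPKM values, was 26000000 to 50200000 reads per library, with the SGC-CBP30 libraries the deepest. Replicates of genes at 10 RPKM or more differed with an SD of 0.091 to 0.115 on the log2 scale. All 9 plasma cell markers examined were at 1 RPKM or more. Their summed level was 906 to 933 RPKM with SGC-CBP30 against 1225 to 1274 RPKM in its DMSO libraries, and 829 to 842 RPKM with CPI203 against 1320 to 1334 RPKM in its own. Of the 9 markers, 6 fell and 0 rose with SGC-CBP30, where SDC1, at 43.9 and 47.2 RPKM in DMSO and 53.1 and 47.4 RPKM with the compound, did not pass (adjusted p = 0.166). With CPI203, 8 fell and 1 rose, and the one that rose was PRDM1, by 0.36 on the log2 scale. The part of these markers in the changes below was not tested. No marker of B cells, T cells, myeloid cells, epithelial cells or fibroblasts reached 1 RPKM, and the largest sum over any of these lists was 1.30 RPKM, for the T cell list in the CPI203 experiment, whose sums there were 0.830 RPKM or more against at most 0.0890 RPKM in the SGC-CBP30 experiment. The DMSO libraries of the experiments differed from each other. In 35 of the 47 genes both DMSO libraries of the CPI203 experiment were above both from the other experiment, in 3 they were below, and the median log2 difference was 0.16. Those are 74.5% and 6.38%, where 36.2% of all genes tested were above and 35.1% below, with a median difference of 0.01. Each compound was therefore set against DMSO cells of the same experiment.

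Many ER chaperone genes are known to be driven through the ER stress element, which reads CCAAT, 9 further bases and CCACG and is bound by ATF6 together with NF-Y. RefSeq promoter windows on GRCh38.p14, from 250 bases before to 50 bases after the start of the gene, were matched by symbol for 40 of the 48 genes. An exact element on either strand lay in 5 of these 40 windows, or 12.5%, against 27 of 35116 windows over all genes, or 0.0769%. With at most 1 of the 10 fixed bases changed it lay in 11 of 40, or 27.5%, against 1.55% of all windows. The exact elements are shown because these 5 genes form a group whose level and response are given further on. Each is written in the direction in which it starts with CCAAT, with the fixed bases in capitals.
HSPA5: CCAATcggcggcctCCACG
HSP90B1, first copy: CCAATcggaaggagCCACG
HSP90B1, second copy: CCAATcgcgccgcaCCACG
CALR: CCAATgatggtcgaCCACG
CANX: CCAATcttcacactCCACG
CRELD2: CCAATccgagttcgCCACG

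The elements begin 66 bases before the start of HSPA5, 194 and 89 bases before that of HSP90B1, 225 before CALR, 151 before CANX and 80 before CRELD2, counted on the strand of the gene. Those of CALR and CRELD2 and the second copy of HSP90B1 lie on the opposite strand. The genes with 1 base changed and no exact element were SDF2L1, SEL1L, HERPUD1, DNAJC3, SYVN1 and HYOU1. With CPI203, SDF2L1, SEL1L and HERPUD1 fell, while DNAJC3, SYVN1 and HYOU1 rose. SDF2L1 and SEL1L carried the largest decreases, and their elements, with the same bases in capitals, are shown for comparison.
SDF2L1: CCAATcaaaaccctCCTCG
SEL1L: CCAATtagctggggCCATG

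The other exact match searched, TGACGTGG, whose reverse complement overlaps CCACG, was in 2 of 40 windows, or 5%, against 0.729% of all windows. A pair of whole windows is printed to show the setting of an exact and a changed element, 250 bases each, ending at the base before the gene start, in the direction of the gene. That of HSPA5 is chr9:125241344-125241593 on the minus strand, and that of SDF2L1 is chr22:21642052-21642301 on the plus strand, both on GRCh38.p14 and from RefSeq. Capitals mark the fixed bases of the element.
HSPA5: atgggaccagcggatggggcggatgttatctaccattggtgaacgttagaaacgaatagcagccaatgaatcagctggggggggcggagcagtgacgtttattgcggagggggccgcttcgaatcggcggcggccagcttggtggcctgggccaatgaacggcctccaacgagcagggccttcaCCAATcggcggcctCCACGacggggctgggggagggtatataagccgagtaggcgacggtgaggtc
SDF2L1: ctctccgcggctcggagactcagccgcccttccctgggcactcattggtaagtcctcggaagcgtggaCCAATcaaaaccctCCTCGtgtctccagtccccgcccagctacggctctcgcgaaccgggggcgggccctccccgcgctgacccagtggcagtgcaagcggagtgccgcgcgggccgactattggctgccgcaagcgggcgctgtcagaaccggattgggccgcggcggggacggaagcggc

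These genes were abundant in LP-1 cells. The median of their mean levels was 108 RPKM, and they ran from ERN1 at 8.81 RPKM to HSP90B1 at 500 RPKM, higher than 99.6% of all genes tested. Together they took between 1.23% and 1.38% of the total RPKM of a library. By role, the median level was 168 RPKM for protein entry, 147 RPKM for disulfide formation, 143 RPKM for the chaperones, 65.6 RPKM for degradation, 46.1 RPKM for vesicle transport and 27.3 RPKM for the stress sensors. The 5 genes with an exact ER stress element had a median level of 307 RPKM, and the 35 matched genes without one had 102 RPKM. All 5 are chaperone genes, from CRELD2 at 32.4 RPKM to HSP90B1 at 500 RPKM. A link between element and level was not tested.

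**Figure D1:**
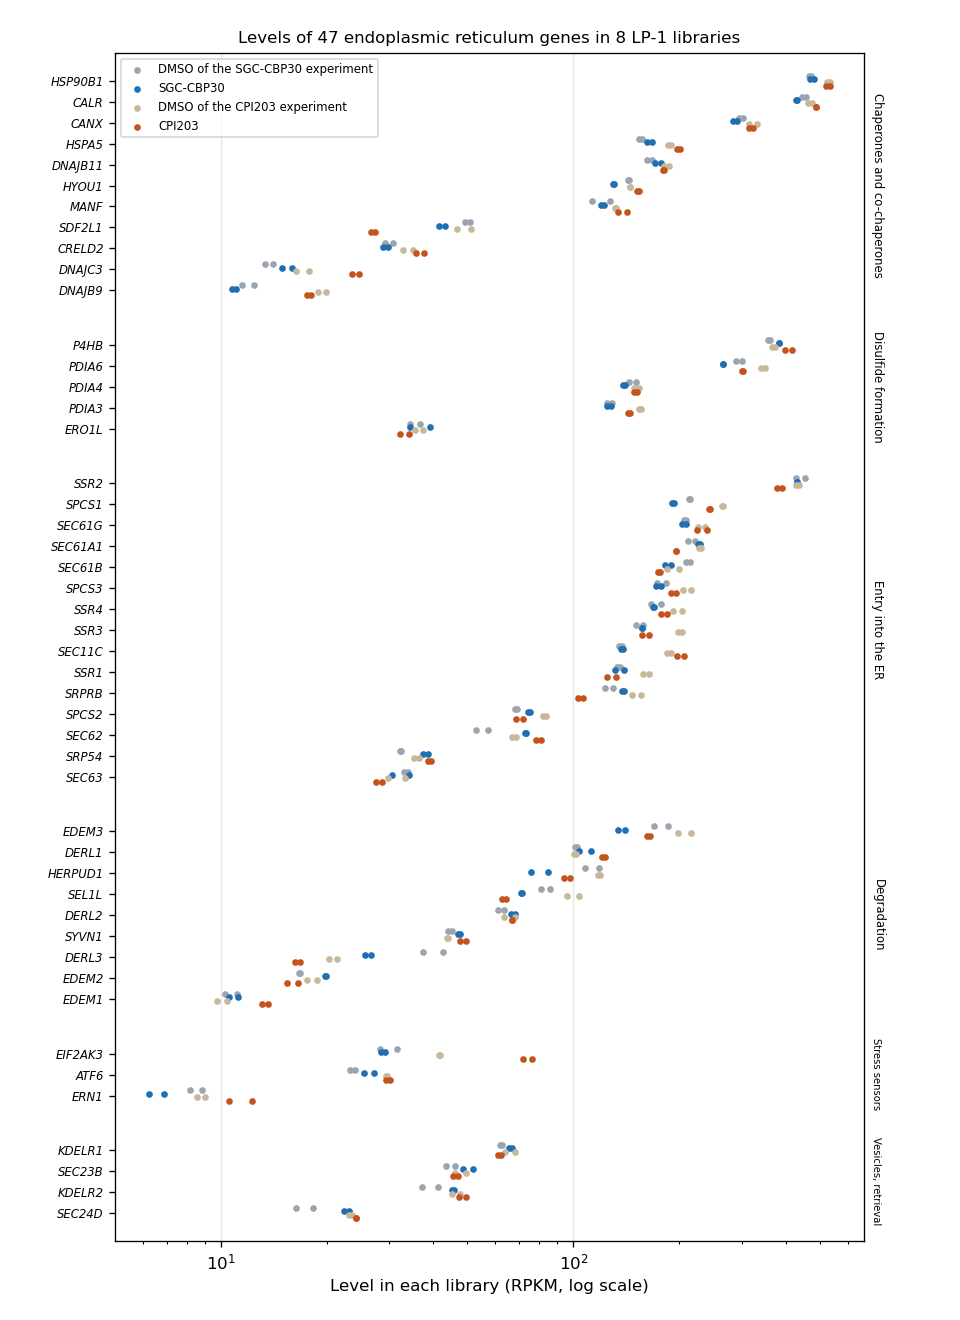
Level of each of the 47 genes in each of the 8 libraries (x axis, RPKM on a log scale), grouped by role and ordered by mean level, with 1 point per library and a colour for each group of 2 libraries. The genes span 8.81 RPKM for ERN1 to 500 RPKM for HSP90B1, and the points of most genes lie close together while those of SDF2L1, DERL3, EIF2AK3 and ERN1 spread apart.

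The first question is how far the BET and CBP/EP300 bromodomain inhibitors moved this machinery within 6 hr. A gene is said to have risen or fallen at an adjusted p under 0.05 in limma, and to be called changed when the change was also at least 1.5-fold. Fold changes are on the log2(RPKM + 0.1) scale, each from 2 libraries against 2. With SGC-CBP30, 1 of the 47 genes was called lower, against 3.79% of all genes tested, and none was called higher, against 3.47%. The gene was DERL3. By adjusted p alone, 10 rose and 10 fell, against 25.6% and 14.8% of all genes tested, and 27 did not pass. Without the second SGC-CBP30 library 12 of the 47 passed, and without the first DMSO library of that experiment 13 passed.

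With CPI203, 1 gene was called higher, against 13.4% of all genes tested, and 2 were called lower, against 14.4%. These were EIF2AK3 in the first direction and SDF2L1 and SEL1L in the second. By adjusted p alone, 12 rose and 18 fell, against 31.1% and 33.1% of all genes tested, and 17 did not pass. The difference between the compounds' effects was called for 4 genes, against 24.5% of all genes tested, and passed by adjusted p alone for 21, against 50.3%.

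The changes were small for most of these genes. The median log2 fold changes were 0.01 (SGC-CBP30) and -0.03 (CPI203), where all genes tested had 0.07 and -0.01. The median size of the change, without its sign, was 0.09 with SGC-CBP30 against 0.18 over all genes, and 0.13 with CPI203 against 0.33. Among genes averaging 5 RPKM or more, which are closer to these genes in level, it was 0.16 and 0.30. With SGC-CBP30, 29 of the 47 estimates lay within 10% of no change, or 61.7%, against 39.3% of all genes tested. With CPI203 it was 24, or 51.1%, against 23.9%. In the 6 further lists of related genes given below, this share ran from 43.8% to 61.0% with SGC-CBP30 and from 8.33% to 46.3% with CPI203. The other vesicle factors were highest with each compound. The 95% interval of the change lay wholly within 1.5-fold for 45 genes with SGC-CBP30 and 42 with CPI203. For reference, IRF4 fell to 38.8% of its DMSO level with SGC-CBP30, and MYC fell to 12.8% with CPI203. The DMSO groups were separate for each compound, so the directions may be set side by side. Adjusted p alone was passed with both compounds by 3 genes that rose (P4HB, SEC62 and SRP54), 8 that fell (DERL3, EDEM3, HERPUD1, PDIA6, SDF2L1, SEC61B, SEL1L and SPCS1), 3 that rose with SGC-CBP30 and fell with CPI203 (EDEM2, SPCS2 and SRPRB) and 2 that did the opposite (ERN1 and HYOU1). For all genes tested the shares were 13.7% that rose with both, 8.40% that fell with both, 5.14% and 2.53%. The SGC-CBP30 counts depended on scaling. With each library scaled to the same median, 3 rose and 15 fell, and with quantile normalization 17 rose and 10 fell. The 3 genes that rose under all 3 scalings were SEC24D, SEC62 and SRP54, and 9 fell under all 3, among them DERL3, HERPUD1, EDEM3, SEL1L and SDF2L1. The SGC-CBP30 changes that no longer passed adjusted p under a scaling were the increases of ATF6, EDEM2, KDELR2, P4HB, SEC23B, SPCS2 and SRPRB and the decrease of PDIA6. With CPI203, 10 rose and 15 fell under all 3 scalings. The increases of HSPA5 and HYOU1 were lost under median scaling (adjusted p = 0.0568 and 0.0874), and the decreases of PDIA3, SPCS3 and SSR4 under quantile normalization (adjusted p = 0.153, 0.0523 and 0.0515). With all 4 DMSO libraries as control, 0 rose and 6 fell with SGC-CBP30 (EDEM3, ERN1, HERPUD1, HYOU1, SDF2L1 and SEL1L), and 9 rose and 9 fell with CPI203. Of all 14732 genes tested, 1409 rose and 710 fell with SGC-CBP30 under this control, and 3932 rose and 4167 fell with CPI203. The sign turned, without passing, for ATF6 and SPCS2 with SGC-CBP30 and for PDIA3 and SPCS1 with CPI203.

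**Figure D2:**
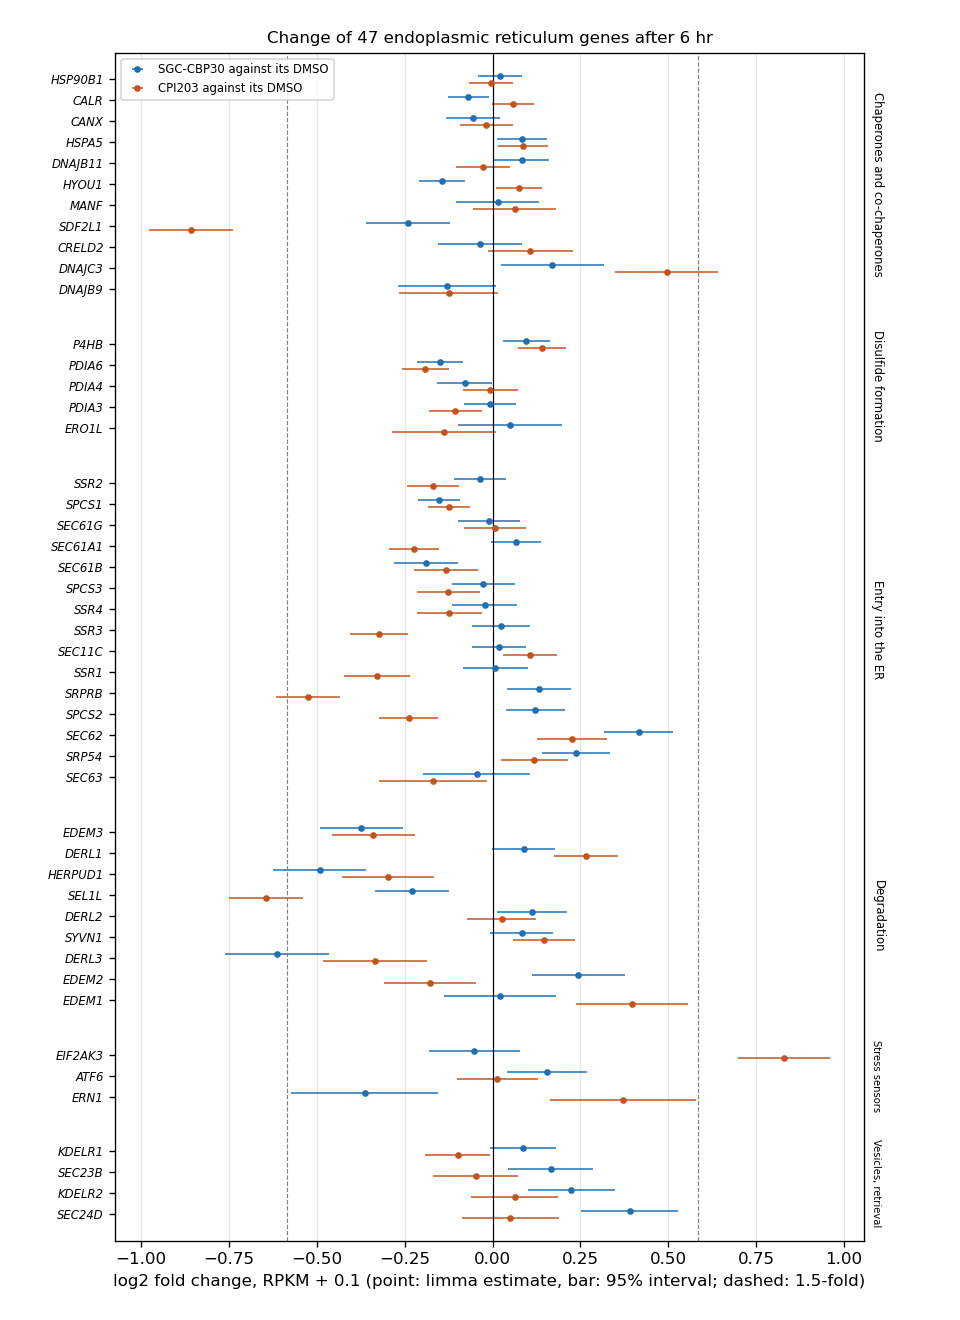
Log2 fold change of each of the 47 genes with SGC-CBP30 (blue) and CPI203 (orange) against the DMSO libraries of the same experiment (x axis, points are limma estimates and bars 95% intervals), with dashed lines at 1.5-fold. Most points lie near 0, and DERL3 with SGC-CBP30 and SDF2L1, SEL1L and EIF2AK3 with CPI203 lie past the dashed lines.

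The chaperones as a group moved little, apart from SDF2L1 and DNAJC3 with CPI203. With SGC-CBP30, 2 of the 11 fell and none rose, and with CPI203, 3 rose and 1 fell, where 14.8% and 25.6% of all genes tested fell and rose with the former and 31.1% rose and 33.1% fell with the latter. With CPI203, median scaling left 1 of the 3 increases, that of DNAJC3. With SGC-CBP30 the count depended on scaling, with 0 rising and 5 falling under median scaling and 3 rising and 3 falling under quantile normalization.

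HSP90B1 encodes GRP94, the HSP90 chaperone of the ER. It stood at 465 and 473 RPKM in DMSO and 470 and 482 RPKM with SGC-CBP30, and at 524 and 534 RPKM in DMSO and 535 and 521 RPKM with CPI203. Treated and DMSO libraries overlapped in both experiments, with log2 intervals of -0.04 to 0.08 and -0.07 to 0.06. HSPA5 encodes BiP, which binds unfolded chains and holds the stress sensors inactive. It was 153 and 157 RPKM in DMSO against 162 and 167 RPKM with SGC-CBP30, and 186 and 189 RPKM against 201 and 197 RPKM with CPI203. The treated libraries were above the DMSO libraries each time, by 5.96% and 6.17%. HSPA5 rose with CPI203 (log2 0.09, 95% interval 0.02 to 0.16, adjusted p = 0.0344), a rise that did not pass under median scaling. It did not pass with SGC-CBP30 (log2 0.08, interval 0.01 to 0.15, adjusted p = 0.0583).

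SDF2L1, a co-factor of BiP, was the chaperone gene with the largest change. It lies at chr22:21996550-21998587 on hg19. Its level was 49.3 and 50.8 RPKM in DMSO and 43.3 and 41.5 RPKM with SGC-CBP30, a decrease of 0.24 ± 0.05 on the log2 scale (± SE, adjusted p = 0.00624). In the CPI203 experiment it was 51.3 and 46.6 RPKM in DMSO and 26.6 and 27.3 RPKM with the compound. Both treated libraries were below both DMSO libraries in each experiment. With CPI203 the gene fell by 0.86 on the log2 scale (SE 0.05, adjusted p = 6.07e-07), which is 45.0% of its level.

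The other 8 chaperone genes had smaller log2 changes than SDF2L1 with CPI203. DNAJC3 (P58IPK), a co-chaperone of BiP that also inhibits PERK, rose by 41.1% with CPI203 (log2 0.50, adjusted p = 9.76e-05), just short of 1.5-fold, and had a log2 change of 0.17 with SGC-CBP30 that did not pass. HYOU1, which exchanges nucleotides on BiP, fell by 9.48% with SGC-CBP30 and rose by 5.33% with CPI203, a rise lost under median scaling. CALR and CANX, the lectin chaperones calreticulin and calnexin, had log2 changes between -0.07 and 0.06. DNAJB11, DNAJB9, MANF and CRELD2 did not pass with either compound, with log2 changes between -0.13 and 0.11. The 5 genes with an exact ER stress element, HSPA5, HSP90B1, CALR, CANX and CRELD2, had log2 changes from -0.07 to 0.08 with SGC-CBP30, where 0 passed, and from -0.02 to 0.11 with CPI203, where 1 rose. Among the 35 matched genes without it the changes ran from -0.49 to 0.42 and from -0.86 to 0.83. A range widens with the number of genes, and all 5 genes with the element are chaperone genes. A link between element and change was not tested.

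Among the genes of disulfide formation none was called. P4HB, the protein disulfide isomerase PDI, is the most abundant of them. It was 357 and 361 RPKM in DMSO and 384 and 383 RPKM with SGC-CBP30, and 367 and 373 RPKM in DMSO and 418 and 398 RPKM with CPI203. The treated libraries lay above the DMSO libraries in both experiments, and P4HB rose by 6.89% with SGC-CBP30 (adjusted p = 0.0299) and by 10.3% with CPI203 (adjusted p = 0.00234). Another isomerase, PDIA6, fell by 9.91% and 12.4%. PDIA3, which works with calreticulin and calnexin, fell by 7.07% with CPI203, a decrease that did not pass under quantile normalization, while PDIA4 and the oxidase ERO1L passed with neither. Under median scaling 0 of these genes rose with SGC-CBP30, and under quantile normalization none fell.

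Most genes of protein entry fell with CPI203. Of the 15, 10 fell and 3 rose (33.1% and 31.1% of all genes tested), against 2 that fell and 4 that rose with SGC-CBP30 (14.8% and 25.6%). With all 4 DMSO libraries as control, 5 fell and 2 rose with CPI203, where 4167 of all 14732 genes tested fell and 3932 rose. The test of the difference between compounds was passed by 7 of the 15, or 46.7%, against 50.3% of all genes tested. In these 7 the effect of CPI203 was the lower one, which held for 29.3% of all genes tested. Under median scaling 5 passed in this direction and 1 in the other. When both compounds shared all 4 DMSO libraries, 3 and 2 passed, but the DMSO level then cancels. That comparison sets the SGC-CBP30 libraries directly against the CPI203 libraries of the other experiment. Median scaling left 3 rising and 11 falling with CPI203 and quantile normalization 3 and 9, while with SGC-CBP30 the former gave 2 and 3 and the latter 9 and 2.

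SRPRB, the membrane-bound subunit of the receptor for the signal recognition particle, differed more between the compounds than any other entry gene. It lies at chr3:133502877-133544616 on hg19, where its deposited locus overlaps that of RAB6B. It was 123 and 130 RPKM in DMSO and 137 and 139 RPKM with SGC-CBP30. In the CPI203 experiment it was 147 and 156 RPKM in DMSO and 107 and 103 RPKM with CPI203. The treated libraries were above the DMSO libraries in the first experiment and below them in the second. SRPRB rose by 9.53% with SGC-CBP30 (adjusted p = 0.0275) and fell by 30.6% with CPI203 (log2 change -0.53, adjusted p = 2.45e-06), and the difference of the log2 changes was 0.66 ± 0.06 (adjusted p = 1.42e-05).

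SSR2, a subunit of the translocon-associated TRAP complex, is the most abundant entry gene. It was 429 and 455 RPKM in DMSO and 432 and 430 RPKM with SGC-CBP30, and 436 and 429 RPKM in DMSO and 391 and 379 RPKM with CPI203. The groups overlapped in the first experiment, and in the second the treated libraries were lower, by 11.1% (adjusted p = 0.00131). All 4 TRAP genes fell with CPI203, with log2 changes of -0.33 for SSR1, -0.32 for SSR3, -0.17 for SSR2 and -0.12 for SSR4, and none of them passed with SGC-CBP30, with log2 changes between -0.04 and 0.02. The decrease of SSR4 was lost under quantile normalization. With all 4 DMSO libraries as control, only that of SSR2 passed among the TRAP genes.

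Of the Sec61 channel, the pore subunit SEC61A1 fell by 14.3% with CPI203 (adjusted p = 0.000166) and SEC61B by 8.80%, whereas SEC61G stood at a log2 change of 0.01. SEC61B also fell with SGC-CBP30, by 12.3%. SEC62 and SEC63 help the channel take up finished chains. SEC62 carried the largest increase of all 47 genes with SGC-CBP30, at 33.4% (log2 0.42 ± 0.04, adjusted p = 0.000117), and rose by 0.23 on this scale with CPI203. SEC63 passed with neither. SRP54, the subunit of the signal recognition particle that binds the signal peptide, rose by 0.24 and 0.12. Of the signal peptidase genes, SPCS1, SPCS2 and SPCS3 fell with CPI203, with log2 changes of -0.12, -0.24 and -0.13, of which that of SPCS3 was lost under quantile normalization, while SEC11C, a catalytic subunit, rose by 7.61%.

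Degradation genes held the 3 largest decreases with SGC-CBP30, those of DERL3, HERPUD1 and EDEM3. Of the 9, 4 fell and 1 rose with SGC-CBP30, where 14.8% and 25.6% of all genes tested did so, and 5 fell and 3 rose with CPI203, where 33.1% and 31.1% did. The 3 that rose are close to the share over all genes. Their summed level was 651 and 649 RPKM in DMSO and 564 and 572 RPKM with SGC-CBP30, a difference of -12.6%, and it was 670 and 698 RPKM in DMSO and 604 and 607 RPKM with CPI203, a difference of -11.4%. In both experiments the treated sums lay below both DMSO sums. A sum is weighted by the abundant genes, and the median log2 change of the 9 was 0.02 with SGC-CBP30 and -0.18 with CPI203. The estimates above 0 numbered 5 and 4. The 4 genes that fell with SGC-CBP30 (DERL3, HERPUD1, EDEM3 and SEL1L) also fell with CPI203, and these decreases passed with both compounds under all 3 scalings. With all 4 DMSO libraries as control, HERPUD1 and SEL1L fell with both compounds. Under this control DERL3 did not pass with SGC-CBP30, and EDEM3 did not pass with CPI203.

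DERL3, of the derlin family that helps draw chains out of the ER and which is most active in secretory cells, was the gene called with SGC-CBP30. It lies at chr22:24176690-24181315 on hg19, and its deposited locus overlaps that of SMARCB1. It was 37.5 and 42.7 RPKM in DMSO and 25.7 and 26.6 RPKM with SGC-CBP30. In the CPI203 experiment it was 21.4 and 20.3 RPKM in DMSO and 16.2 and 16.8 RPKM with CPI203. The treated libraries were lower in both experiments. With SGC-CBP30, DERL3 fell by 0.61 on the log2 scale (95% interval -0.76 to -0.47, adjusted p = 0.000131) and by 0.33 with CPI203 (adjusted p = 0.0014). The call rests on the second DMSO library of the SGC-CBP30 experiment, since without it the change was -0.52, short of 1.5-fold, with adjusted p = 0.00128. The DMSO levels also differed between experiments more than for any other of the 47 genes, by -0.94 on the log2 scale, and against all 4 DMSO libraries together the SGC-CBP30 change was -0.14 with adjusted p = 0.77.

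SEL1L, the adaptor of the HRD1 ubiquitin ligase, lies at chr14:81937893-82000205 on hg19. It was 86.0 and 80.8 RPKM in DMSO and 71.3 and 70.9 RPKM with SGC-CBP30, and 95.7 and 104 RPKM in DMSO and 64.5 and 62.7 RPKM with CPI203. The treated libraries were below the DMSO libraries in each experiment. With SGC-CBP30, SEL1L fell by 0.23 on the log2 scale (adjusted p = 0.00443), and it fell by 0.65 ± 0.05 with CPI203 (adjusted p = 1.76e-06). Against all 4 DMSO libraries the CPI203 change was -0.52, short of 1.5-fold. Its partner SYVN1, the HRD1 ligase itself, rose by 10.7% with CPI203 (adjusted p = 0.00875) and stood 5.91% above DMSO with SGC-CBP30, which did not pass.

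EDEM3, which trims mannose from chains bound for degradation, is the most abundant degradation gene. It was 186 and 170 RPKM in DMSO and 134 and 141 RPKM with SGC-CBP30, and 198 and 215 RPKM in DMSO and 162 and 165 RPKM with CPI203. The groups did not overlap in either experiment, and EDEM3 fell by 22.9% and 21.0%. The related gene EDEM1 rose by 32.0% with CPI203 (log2 0.40, adjusted p = 0.000737) and had a log2 change of 0.02 with SGC-CBP30, while EDEM2 rose by 18.6% with SGC-CBP30 and fell by 11.6% with CPI203. HERPUD1, which gathers the HRD1 complex, fell by 0.49 in log2 terms with SGC-CBP30 (adjusted p = 0.000232) and by 0.30 with CPI203 (adjusted p = 0.00139). Of the other derlins, DERL1 rose by 20.3% with CPI203 and DERL2 passed with neither compound.

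The 3 stress sensors went different ways. EIF2AK3 encodes PERK, the kinase that slows translation under ER stress, and lies at chr2:88856259-88927094 on hg19, where its deposited locus overlaps that of AC062029.1. It was 28.2 and 31.6 RPKM in DMSO and 29.2 and 28.4 RPKM with SGC-CBP30, so that the groups overlapped (log2 change -0.05, interval -0.18 to 0.08). In the CPI203 experiment it was 41.5 and 41.8 RPKM in DMSO and 76.5 and 71.8 RPKM with CPI203. Here the treated libraries were well above the DMSO libraries, by 78.0% (log2 0.83 ± 0.06, adjusted p = 1.31e-06). This was the largest increase among the 47 genes with either compound.

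ERN1 encodes IRE1α, the kinase and endonuclease that splices XBP1 RNA, and lies at chr17:62120353-62208179 on hg19. It was 8.80 and 8.18 RPKM in DMSO and 6.25 and 6.90 RPKM with SGC-CBP30, and 8.53 and 8.99 RPKM in DMSO and 10.5 and 12.3 RPKM with CPI203. The treated libraries were below the DMSO libraries in the first experiment and above them in the second. ERN1 fell by 0.36 ± 0.09 in log2 terms with SGC-CBP30 (adjusted p = 0.012) and rose by 0.37 with CPI203 (adjusted p = 0.00554). ATF6, whose product is cut in the Golgi to free a transcription factor, was 24.0 and 23.2 RPKM in DMSO and 25.4 and 27.2 RPKM with SGC-CBP30, and 29.3 and 29.6 RPKM in DMSO and 30.1 and 29.4 RPKM with CPI203. It rose by 11.4% with SGC-CBP30 (adjusted p = 0.0363), a rise that passed under neither median scaling nor quantile normalization, and overlapped its DMSO libraries with CPI203.

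**Figure D3:**
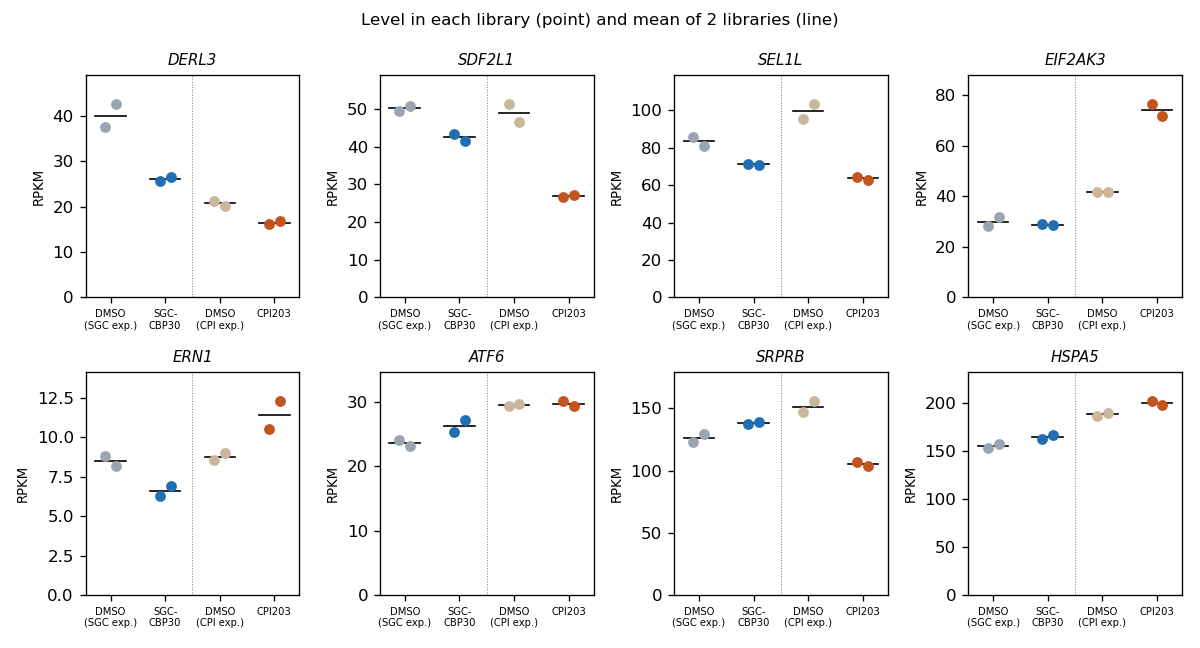
Level in each library (y axis, RPKM, points) and mean of 2 libraries (line) of 6 genes called in some comparison and of ATF6 and HSPA5, with the dotted line between the SGC-CBP30 experiment on the left and the CPI203 experiment on the right. EIF2AK3 rises from 41.5 and 41.8 RPKM to 76.5 and 71.8 RPKM with CPI203, and the DMSO levels of DERL3 differ between the experiments.

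The 4 genes of vesicle transport and retrieval showed increases with SGC-CBP30 and none that passed with CPI203. SEC24D, a cargo-binding coat protein of vesicles leaving the ER, rose by 31.0% with SGC-CBP30 (log2 0.39, adjusted p = 0.00108). KDELR2, a receptor that returns escaped chaperones, rose by 16.7%, and SEC23B, another coat protein, by 12.2%. Median scaling left 1 of these increases, that of SEC24D, and with all 4 DMSO libraries as control none passed. The most abundant gene of the role was KDELR1. It was 62.0 and 62.9 RPKM in DMSO and 65.8 and 66.9 RPKM with SGC-CBP30, and 68.3 and 63.8 RPKM in DMSO and 62.3 and 60.9 RPKM with CPI203. The groups did not overlap, but neither change passed (log2 0.09 and -0.10).

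Summed over all 47 genes, the level was 6126 ± 96.2 RPKM (SD, n = 2) in DMSO and 6017 ± 39.7 with SGC-CBP30, and 6768 ± 73.6 in DMSO and 6465 ± 64.8 with CPI203. The differences of -1.78% and -4.48% are small, and with 2 libraries against 2 the exact permutation test cannot give a two-sided p under 0.333, so none is given for the sums. By role, the chaperone sum differed by -1.41% with SGC-CBP30 and 1.04% with CPI203, and that of disulfide formation by -1.22% and -1.87%. The entry sum differed by -0.396% and -9.68%, the vesicle sum by 13.0% and -1.71%, and the sensor sum by -0.521% and 44.4%, which is carried by EIF2AK3. These libraries are bulk RNA, so fewer cells of a kind and less RNA per cell cannot be told apart.

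**Figure D4:**
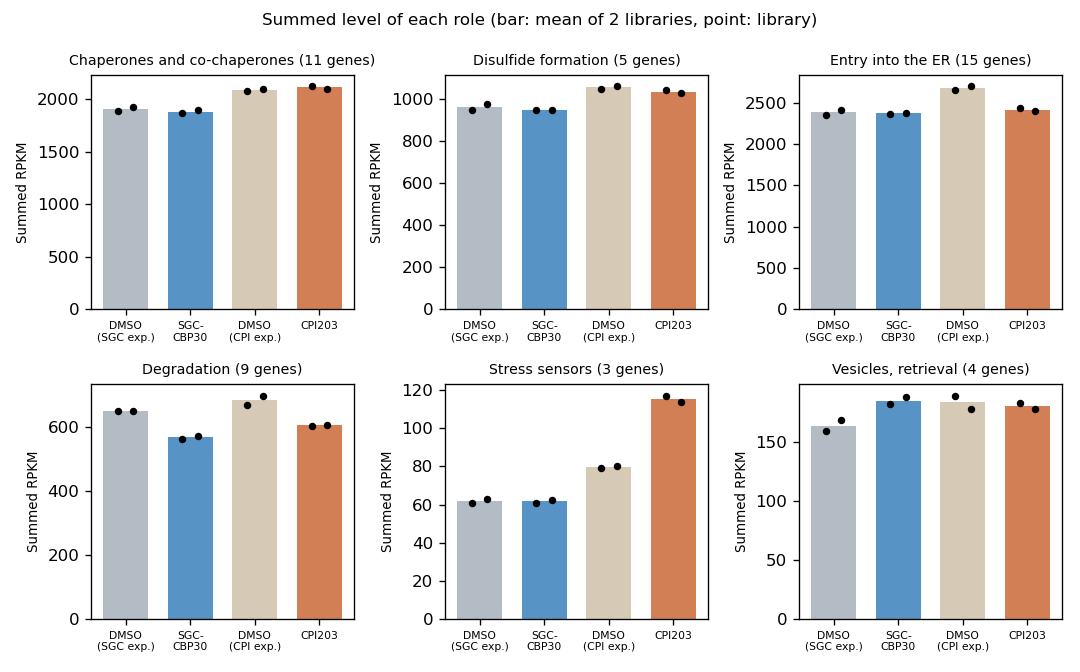
Summed RPKM of the genes of each role (y axis, from 0), with bars for the mean of 2 libraries and points for the libraries, in DMSO and treated cells of each experiment. The chaperone sums stay within 1.41% of DMSO, while the degradation sums are lower with both compounds and the sensor sum is 44.4% higher with CPI203.

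For 4 genes the effects of SGC-CBP30 and CPI203 differed by at least 1.5-fold. The difference, SGC-CBP30 change minus CPI203 change on the log2 scale, was 0.66 for SRPRB and 0.62 ± 0.08 for SDF2L1 (adjusted p = 0.000112), which were lower with CPI203. It was -0.88 ± 0.08 for EIF2AK3 (adjusted p = 2.17e-05) and -0.74 ± 0.13 for ERN1 (adjusted p = 0.0012), which were higher with CPI203. By role, the difference passed for 7 of 15 entry genes and 3 of 4 vesicle genes, all with the higher effect in SGC-CBP30, for 2 of 3 sensors with the lower effect in SGC-CBP30, for 2 and 3 of 9 degradation genes and 1 and 3 of 11 chaperones in these directions, and for none of the 5 genes of disulfide formation. Over all genes tested it passed for 29.3% with the higher and 21.0% with the lower effect in SGC-CBP30. The directions by role depended on scaling. Under median scaling 5 entry genes passed in the first direction and 1 in the second, and 1 vesicle gene passed. Under quantile normalization 1 vesicle gene passed. So did 4 chaperones in the first direction and 2 in the second, and 2 genes of disulfide formation in the first. With all 4 DMSO libraries shared, the difference is a direct comparison of SGC-CBP30 with CPI203 libraries across experiments, and 0 vesicle genes passed. SDF2L1 fell short of 1.5-fold, at 0.55, without the first DMSO library of the CPI203 experiment. It also did so under median scaling (adjusted p = 0.000361). SRPRB fell short, at 0.40, in the direct comparison of the treated libraries (adjusted p = 0.0158), which also holds any difference between the experiments. The concentrations, 2.5 μM and 0.25 μM, were not matched, so these differences describe the treatments as given.

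The genes around this machinery were taken from 6 further lists written by function. Of 16 tested genes of stress signalling, 5 rose and 6 fell with SGC-CBP30, and 5 rose and 10 fell with CPI203, with median log2 changes of -0.10 and -0.30. These counts, and those of the lists that follow, stand beside 25.6% of all genes tested that rose and 14.8% that fell with SGC-CBP30, and 31.1% and 33.1% with CPI203. XBP1, the transcription factor made active by IRE1α, was 239 and 248 RPKM in DMSO and 185 and 176 RPKM with SGC-CBP30, and 333 and 334 RPKM in DMSO and 187 and 180 RPKM with CPI203. The treated libraries were lower in both experiments, and XBP1 fell by 0.43 and 0.86 on the log2 scale (adjusted p = 2.44e-05 and 5.35e-08). Gene-level RPKM counts spliced and unspliced XBP1 RNA together. ATF4, which PERK signalling induces at the level of translation, fell by 0.21 and 0.33. Its target DDIT3 (CHOP) was 10.9 and 12.1 RPKM in DMSO and 14.7 and 14.9 RPKM with SGC-CBP30, and 12.1 and 13.1 RPKM in DMSO and 20.6 and 20.0 RPKM with CPI203, above DMSO in every treated library. DDIT3 rose by 0.37 and 0.68 on the log2 scale (adjusted p = 0.00301 and 1.74e-05). PPP1R15A (GADD34), which restores translation after PERK acts, carried the largest changes of the list, with increases of 0.99 with SGC-CBP30 and 1.80 with CPI203. With CPI203, TRIB3, another gene downstream of ATF4 and CHOP, fell by 1.24 and TRAF2, an adaptor that binds IRE1α, by 0.87.

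Of 29 other folding factors, 5 rose and 6 fell with SGC-CBP30, and 7 rose and 15 fell with CPI203. The thioredoxin-like gene TXNDC11 fell by 0.76 with SGC-CBP30, the oxidase gene QSOX2 fell by 0.68 with CPI203, and TMX4 and DNAJC1 rose by 0.67 and 0.60 with CPI203. In N-glycosylation, 7 of 33 genes rose and 7 fell with SGC-CBP30, while with CPI203 6 rose and 16 fell. The latter included ALG14 and ALG3, which build the sugar precursor and fell by 1.37 and 0.76. Among 15 other entry factors, 4 rose and 3 fell with SGC-CBP30, and 4 rose and 6 fell with CPI203. TRAM2, a translocon partner, fell by 0.92 with SGC-CBP30. With CPI203, SEC61A2 and CAMLG rose by 0.95 and 0.65, and SRP72, of the signal recognition particle, fell by 0.61.

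Of 24 other degradation factors, 8 rose and 2 fell with SGC-CBP30, and 14 rose and 8 fell with CPI203. The 14 are 58.3% of the list, while the 8 that fell are 33.3%, near the share over all genes. UBE2J1, the ubiquitin-conjugating enzyme of the ER membrane, and NGLY1, which strips sugars from withdrawn chains, fell by 1.07 and 0.91 with CPI203, while HERPUD2, the relative of HERPUD1, rose by 0.98. Of 41 other vesicle factors, 14 rose and 1 fell with SGC-CBP30, and 13 rose and 13 fell with CPI203, where BNIP1 fell by 1.22 and STX5 rose by 0.85, both of them SNARE proteins. Directions of the lists with SGC-CBP30 depended on scaling, since under median scaling 5 of the other degradation factors rose and 7 fell and 9 of the vesicle factors rose and 5 fell. The medians over all genes tested are given above, and for these lists they were -0.10 to 0.10 for SGC-CBP30 and -0.30 to 0.22 for CPI203.

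**Figure D5:**
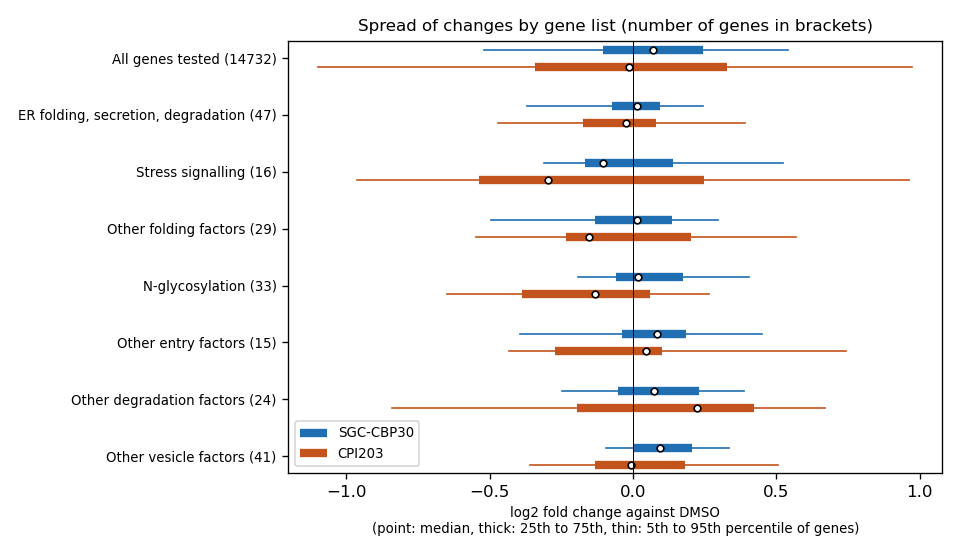
Distribution of log2 fold changes (x axis) over all genes tested, the 47 genes and the 6 further lists, with the number of genes in brackets, for SGC-CBP30 (blue) and CPI203 (orange), where the point is the median, the thick bar runs from the 25th to the 75th and the thin bar from the 5th to the 95th percentile of genes. The bars of the 47 genes are narrower than those of all genes tested with both compounds. So are those of the 6 further lists, except the thick bar of stress signalling with CPI203, which is wider.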

How the data were processed

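The authors deposited 1 RPKM value per gene and library. Their methods state total RNA with on-column DNase digestion, sequencing and mapping by a provider, and comparison of RPKM with compound and DMSO as log2 fold changes. The submitters' processing notes name TopHat 1.4.1, Cufflinks and hg19. The annotation release, the counting rule and whether strand was used are not given in the sources used here, and 22 of the 47 genes have a deposited locus that overlaps another tested gene. Gene positions come from the deposited annotation, whose starts were converted to count from 1. The table holds 24 further columns of libraries, which were not used.

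The genes and the further lists were chosen with earlier results of these data known. The DMSO control of each compound was read from the form of the library names in the labels. Leaving out 27 genes for which a value was missing, log2(RPKM + 0.1) of the 14732 genes averaging 1 RPKM or more was fitted with limma 3.58.1 in R 4.3.3, with an intensity trend, 4 group means, 4 residual and 5.5 prior degrees of freedom and Benjamini-Hochberg adjustment over all genes tested. Since the pseudocount is added, the change of low genes is understated. The replicates are biological replicates in the authors' description, and p-values measure only the spread between these samples. The authors normalized to DMSO controls they call paired, without saying which libraries pair. Deviations of libraries with the same number had correlations of -0.096 and 0.009, so the number was used as a block only in an alternative. The RPKM values carry no counts, so no count test was run. Depth was estimated from single-exon genes of at least 800 bases below 0.5 RPKM, of which 58.7% to 71.4% fell within 0.1 of a whole number of reads.

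Values in every library are given for genes called in any comparison, the most abundant gene of each role, ERN1, EIF2AK3, ATF6, HSPA5, XBP1 and DDIT3. Other genes of the 47 are named with their change alone. From the further lists, at most 3 called genes with the largest change with each compound are named. The fit was tested on simulated data. Promoter windows were searched in Python 3.11.15 with pandas 2.3.3 and numpy 2.4.6, and figures were drawn with matplotlib 3.10.9. Alternatives were another pseudocount and filter, other scalings, all 4 DMSO libraries as control, a replicate block, separate fits, no trend, other fold thresholds and each library left out. Protein sequences were not analysed here.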

Additional observations from a re-analysis of the deposited data

Results flagged for a closer look

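The test of the difference between the compounds' effects passed adjusted p for 21 of the 47 genes, against 50.3% of all genes tested. The difference was also at least 1.5-fold for 4 of them, against 24.5% of all genes tested. In these 4, SGC-CBP30 change minus CPI203 change was 0.62 for SDF2L1 and 0.66 for SRPRB, and -0.88 for EIF2AK3 and -0.74 for ERN1, on the log2 scale in limma. With 2 libraries in each group, no test of a single sample standing apart was made.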

How the results depend on the processing

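Over 156 recomputed counts and medians of the 47 genes, 134 stayed within the limits set for them and 22 did not. Of 2350 recomputed changes of single genes, 2251 kept their sign and 99 did not, 30 of them against all 4 DMSO libraries. Of the 99, 8 had passed adjusted p alone, all against all 4 DMSO libraries and none still passing, among them the DERL3 difference at 0.66. For the difference, sharing all 4 DMSO libraries cancels the DMSO level. It then sets SGC-CBP30 libraries directly against CPI203 libraries, and so also holds any difference between the experiments. At 1.5-fold, 6 changes lost the call, none was called in the opposite direction, and 3 gained it, all against all 4 DMSO libraries, namely DERL3 (-0.80, adjusted p = 0.0489) and DNAJC3 (0.65, adjusted p = 0.00191) with CPI203 and the DNAJC3 difference (-0.64, adjusted p = 0.00558). At a threshold of 2-fold, 0 of the 47 genes were called with either compound or for the difference, where 278, 1558 and 1427 of all genes tested remained, against 1070, 4095 and 3609 at 1.5-fold. With no fold threshold the counts were 20, 30 and 21. With all 4 DMSO libraries as control, 0 genes were called with SGC-CBP30 (516 of all genes), 6 and 18 passed adjusted p alone with SGC-CBP30 and CPI203, and the medians moved from 0.0145, -0.0263 and 0.0409 to -0.0658, 0.0388 and -0.1118 (SGC-CBP30, CPI203, difference). Without a filter on low values 13 passed with SGC-CBP30. A pseudocount of 1 called 667 of all genes with SGC-CBP30, and the minimum of 5 RPKM called 505, 2590 and 2358. Median scaling gave medians of -0.0625 (SGC-CBP30) and -0.0256 (difference), and quantile normalization 0.0833 and 0.0865. Of all genes called with SGC-CBP30, 47.8% were higher, against 32.5% under median scaling, 32.4% under quantile normalization, 34.8% with a pseudocount of 1 and 36.2% with the minimum of 5 RPKM, and for the difference 60.5% against 50.2% under quantile normalization.

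Leaving out each library in turn, with a lone library assumed to vary like the other groups, gave 0 to 1 genes called with SGC-CBP30, 3 with CPI203 and 3 to 4 for the difference. By adjusted p alone it gave 12 to 21, 22 to 30 and 16 to 18 genes, and medians of -0.0033 to 0.0282, -0.0497 to -0.0247 and 0.0216 to 0.0592. The study speaks of paired DMSO controls without saying which libraries pair. With the replicate number as a block, 1, 3 and 4 genes were called and 16, 25 and 18 passed adjusted p alone. Whether depth limits these genes was not tested.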
